A study of Mus musculus with 12 samples.

Results

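Pump and aquaporin genes that fill the blastocoel, the fluid cavity of the blastocyst, were followed in mouse embryos cultured with or without an inhibitor of p38 mitogen-activated protein kinases (p38-MAPK). The 6 genes were chosen by name from the 34245 genes of the table: Atp1b1 and Atp1b3, Atp12a, Aqp3, Aqp8 and Aqp9. Embryos came from matings of F1 (C57Bl6 x CBA/W) mice and were all cultured from the 2-cell stage in amino acid-supplemented KSOM to E3.5. They were then kept for 4, 7 or 10 h in DMSO, the solvent control, or in 20 µM SB220025, a small-molecule p38-MAPK inhibitor (p38-MAPKi). Each of the 12 libraries came from a pool of 30 whole blastocysts, with 2 libraries in each of the 6 groups. The treatment was chemical, with no p38-MAPK mutant beside it, and each pool mixed all cell types of the embryo.

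The outer epithelium of the blastocyst, the trophectoderm, pumps sodium into the cavity with the Na+/K+-ATPase of its basolateral membranes, and water follows along the osmotic gradient. The Na+/K+-ATPase is a pair of a catalytic alpha subunit and a glycosylated beta subunit that carries the pump to the membrane. Atp1b1 and Atp1b3 encode beta subunits. Atp12a encodes the catalytic subunit of the non-gastric H+/K+-ATPase, a relative of the sodium pump. Aquaporins are membrane channels. Aqp3 and Aqp9 pass water and small solutes such as glycerol, and Aqp8 passes water.

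RNA was poly(A)-selected, and the deposited value of a gene was its log2 RPKM (reads scaled to the length of the gene and the total of the library). The libraries held between 11242313 and 24457312 reads, and p38-MAPKi 7 h replicate 1 was the shallowest and had the fewest genes with a read, 14007. All 6 genes had at least 1 RPKM in every library and were tested in every comparison. Trophectoderm was present by its markers, since 9 of 10 trophectoderm markers reached 1 RPKM in at least 2 libraries, Elf5 being the exception. None of the 6 markers of cumulus cells, the somatic cells that surround an oocyte, did so, and their summed level lay between 0.0842 and 0.183 RPKM. Markers of the inner cell mass and epiblast (6 of 6) and of primitive endoderm (4 of 6, not Sox7 or Foxa2) were also detected. In whole embryos, fewer cells of a type and less RNA per cell cannot be told apart.

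The sequence around the start of transcription is shown for the 3 members with the highest levels, 2 of which are the beta subunits compared below. RefSeq windows of 250 bases before to 50 after the start (GRCm38.p6, printed 5′ to 3′ on the strand of the gene) were matched by symbol for 5 of the 6 members, and Atp12a had no entry. Capitals mark the motifs that were searched on both strands, namely the GC box (GGGCGG), the TATA box (TATAAA), the core of the cAMP response element (TGACG, here called CRE), and sites for TEAD (GGAATG), AP-1 (TGANTCA), TFAP2 (GCCNNNGGC) and GATA factors (AGATAA).
Atp1b1, chr1:164458306-164458605, minus strand: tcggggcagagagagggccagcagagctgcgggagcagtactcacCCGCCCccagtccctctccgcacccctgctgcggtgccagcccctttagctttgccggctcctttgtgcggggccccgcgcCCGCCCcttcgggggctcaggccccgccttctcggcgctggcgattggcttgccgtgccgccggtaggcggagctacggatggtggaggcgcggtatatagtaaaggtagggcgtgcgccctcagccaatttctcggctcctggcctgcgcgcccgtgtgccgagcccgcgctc
Atp1b3, chr9:96364382-96364681, minus strand: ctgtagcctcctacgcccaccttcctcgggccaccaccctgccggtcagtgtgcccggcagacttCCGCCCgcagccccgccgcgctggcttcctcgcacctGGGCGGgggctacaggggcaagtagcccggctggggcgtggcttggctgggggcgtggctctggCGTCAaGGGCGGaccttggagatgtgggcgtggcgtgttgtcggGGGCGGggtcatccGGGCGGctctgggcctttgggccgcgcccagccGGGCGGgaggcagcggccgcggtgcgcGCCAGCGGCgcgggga
Aqp3, chr4:41098134-41098433, minus strand: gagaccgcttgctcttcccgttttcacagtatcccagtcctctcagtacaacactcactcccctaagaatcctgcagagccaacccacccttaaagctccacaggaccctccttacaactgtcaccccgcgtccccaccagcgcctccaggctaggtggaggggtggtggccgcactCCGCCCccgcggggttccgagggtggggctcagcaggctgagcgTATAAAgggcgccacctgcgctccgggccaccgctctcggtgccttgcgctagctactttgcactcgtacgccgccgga

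The beta subunit genes had starts rich in G and C, 71.0% in Atp1b1 and 76.0% in Atp1b3, and neither held a TATA box as searched. Atp1b1 held 2 GC boxes, which began 205 and 124 bases upstream of the start. Atp1b3 held 6 GC boxes, a CRE match 84 bases upstream and a TFAP2 match 35 bases downstream. A second annotated start of Atp1b3 (chr9:96363666-96363965) held a CRE match alone. Aqp3, with 64.0% G and C, held a TATA box 29 bases upstream and 1 GC box. Aqp8 (chr7:123462044-123462343) held a TEAD match 221 bases upstream, 1 of the 2 Aqp9 windows (chr9:71162584-71162883) held an AP-1 match 24 bases upstream, and the other (chr9:71163240-71163539) held none. Of all 32817 windows of this length, 35.6% held a GC box, 13.6% a TATA box, 20.8% a CRE match, 16.6% a TFAP2 match, 14.7% a TEAD match, 11.2% a GATA match and 7.81% an AP-1 match. No measurement at these sequences was made, so the matches describe letters and nothing else.

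In the controls the genes covered a wide range of levels per length. Over the 6 DMSO libraries, Aqp3 stood highest of the members at 99.1 ± 16.5 RPKM, followed by Atp1b1 at 82.8 ± 9.15 RPKM (SD, n = 6). These neighbours in the order overlapped, with Aqp3 above Atp1b1 in 4 of the 6 libraries. Atp1b3 stood at 52.5 ± 4.07 RPKM, below Atp1b1 in all 6 DMSO libraries. The remaining members were lower: Aqp9 at 17.0 ± 3.64 RPKM, Atp12a at 10.2 ± 2.27 RPKM and Aqp8 at 4.12 ± 0.844 RPKM (SD, n = 6). The ranges of Aqp9 and Atp12a overlapped, although Aqp9 was above Atp12a within each of the 6 libraries, and Aqp8 was below both. Aqp8 rested on as few as 71 reads in a library, where counting alone gave an error of 11.87%, and Atp12a on as few as 155 reads, or 8.03%. The other members had at least 433 reads in every library.

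**Figure D1:**
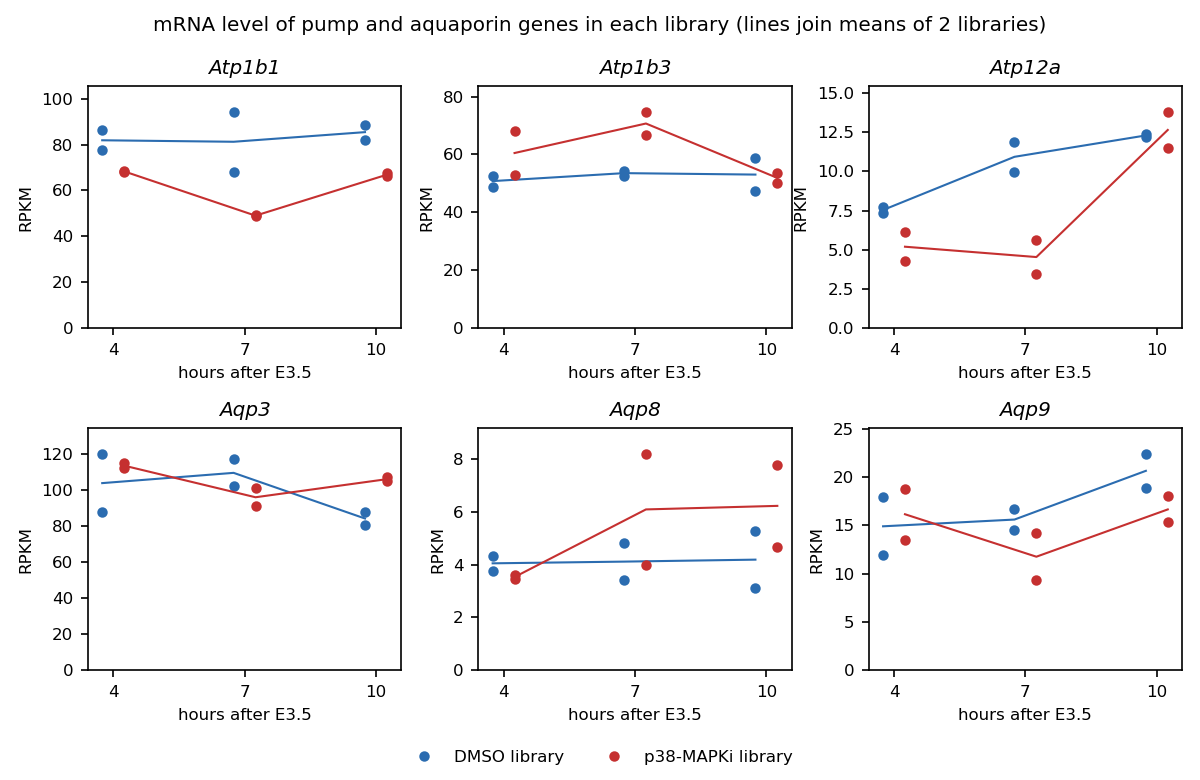
RPKM of the 6 members (vertical axes, each from 0) against hours after E3.5 (horizontal axes), with DMSO libraries in blue, p38-MAPKi libraries in red and lines through the means of 2 libraries. Atp1b1 stayed at or below 68.5 RPKM in the 6 p38-MAPKi libraries, and Atp12a was between 3.43 and 6.11 RPKM after 4 and 7 h of p38-MAPKi.

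Atp1b1 (ENSMUSG00000026576.12, chr1:164437109-164458355, minus strand) was the member that was lower over the whole course. After 4 h it stood at 77.5 and 86.2 RPKM in DMSO and at 68.5 and 68.1 RPKM in p38-MAPKi. After 7 h it stood at 94.2 and 68.2 RPKM in DMSO and at 49.1 and 48.9 RPKM in p38-MAPKi. The controls of 7 h were thus far apart, while both treated libraries were the lowest of the 12. After 10 h it stood at 82.1 and 88.7 RPKM in DMSO and at 67.6 and 66.1 RPKM in p38-MAPKi. The treated libraries lay below the controls at all 3 time points. Over all genes tested, in either direction, 40.4% did not overlap at 4 h, 61.7% at 7 h and 52.2% at 10 h. The share of genes on the same side at all 3 was not counted.

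Fitted across the 12 libraries with time as a term, Atp1b1 fell by 0.44 on the log2 scale after p38-MAPKi (SE 0.0990, limma with Benjamini-Hochberg adjustment, adjusted p = 0.0358). It was 1 of 6 members called in that fit, where 2.67% of 11590 genes were called and 1.24% were called lower. An exact permutation of the treatment within each time point gave p = 0.00926 (two-sided, unadjusted), the smallest that its 216 arrangements can give. Any gene with treated libraries wholly on the same side of the controls at all 3 time points reaches this value. It therefore restates that order and adds no separate support. No single time point passed the test: the log2 change was -0.26 (SE 0.200, adjusted p = 0.730) at 4 h, -0.71 (SE 0.196, adjusted p = 0.0678) at 7 h and -0.35 (SE 0.0664, adjusted p = 0.0727) at 10 h. The common change was smaller without the 7 h libraries, at -0.31 (adjusted p = 0.165). It also lost its call without any one of 8 of the 12 libraries (replicate 2 of either group at 4 h or at 10 h, or any library of 7 h), with log2 changes between -0.47 and -0.35 and adjusted p between 0.0541 and 0.0980, and kept it in 4 of 12.

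Atp1b3 (ENSMUSG00000032412.8, chr9:96332655-96364442, minus strand), the other beta subunit, had the opposite sign at 4 and 7 h. After 4 h it stood at 48.9 and 52.7 RPKM in DMSO and at 53.0 and 68.0 RPKM in p38-MAPKi. After 7 h it stood at 52.7 and 54.4 RPKM in DMSO and at 74.7 and 66.7 RPKM in p38-MAPKi. The treated libraries were above the controls at both times. After 10 h, with 58.8 and 47.3 RPKM in DMSO and 50.3 and 53.5 RPKM in p38-MAPKi, they overlapped. None of these differences passed the test. The log2 change was 0.24 (SE 0.200, adjusted p = 0.746) at 4 h, 0.40 (SE 0.167, adjusted p = 0.161) at 7 h and -0.02 (SE 0.108, adjusted p = 0.928) at 10 h, and 0.21 over the 3 time points (SE 0.0976, adjusted p = 0.206; exact permutation p = 0.0833).

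The balance between the beta subunits is a quantity within each library. The ratio of Atp1b1 to Atp1b3, both per length, was 1.58 and 1.64 in DMSO and 1.29 and 1.0 in p38-MAPKi after 4 h. After 7 h it was 1.79 and 1.25 in DMSO and 0.658 and 0.733 in p38-MAPKi, the only 2 of the 12 libraries in which Atp1b3 clearly exceeded Atp1b1. After 10 h it was 1.40 and 1.87 in DMSO and 1.34 and 1.23 in p38-MAPKi. Treated and control ratios did not overlap at any time point, although at 10 h the nearest were 1.34 and 1.40. Of single genes, 40.4% did not overlap at 4 h, 61.7% at 7 h and 52.2% at 10 h. The share of gene pairs with ratios that do not overlap was not counted. The ratio was chosen after the values of both genes were seen, so it is given without a test. The summed level of the 2 genes spanned 123 to 147 RPKM in the DMSO libraries and 116 to 136 RPKM in the p38-MAPKi libraries. The treated and control sums overlapped at 4 h and at 7 h, and at 10 h they did not, with 141 and 136 RPKM in DMSO and 118 and 120 RPKM in p38-MAPKi.

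**Figure D2:**
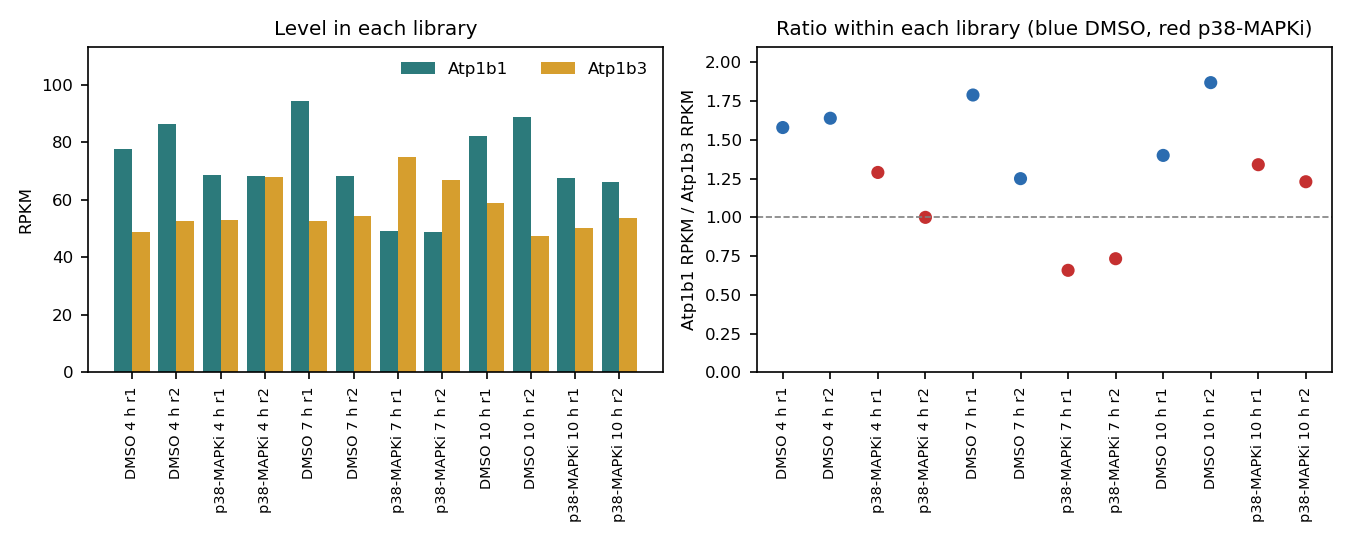
Left, RPKM of Atp1b1 and Atp1b3 as bars from 0 in each of the 12 libraries (r1 and r2, replicates), and right, the ratio of the 2 RPKM values in the same libraries, DMSO in blue and p38-MAPKi in red, with a dashed line at 1. The 7 h p38-MAPKi libraries had ratios of 0.658 and 0.733, and the 6 DMSO libraries lay between 1.25 and 1.87.

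Trophectoderm markers did not move one way at 4 or 10 h. At 4 h the treated libraries lay above the controls for 3 of the 9 tested and below them for 3. There 1 marker was called lower, beside 0.909% of all genes called. At 7 h they lay above for 0 and below for 5, beside 38.7% of all genes below. The median log2 change was then -0.39, beside -0.14 for all genes, and 4 of 9 had an unadjusted p under 0.05 (limma), beside 28.4%. At 10 h they lay above for 2 and below for 3. Over all genes 40.4% did not overlap at 4 h, 61.7% at 7 h and 52.2% at 10 h. Over the 3 time points the median log2 change of the trophectoderm markers was -0.09, beside -0.03 for all genes. It was -0.16 for inner cell mass and epiblast markers and -0.30 for primitive endoderm markers. Of the 9 markers tested over the 3 time points, 3 fell and none rose: Id2 by 0.84 on the log2 scale (SE 0.135, adjusted p = 0.0117), Gata3 by 0.51 (SE 0.0902, adjusted p = 0.0169) and Cdx2 by 0.38 (SE 0.0831, adjusted p = 0.0336). Over all 11590 genes, 2.67% were called and 1.24% were called lower. Without the 7 h libraries Id2 was still called (limma, adjusted p = 0.0342), and Gata3 (0.0976) and Cdx2 (0.178) were not. With no filter none of the 3 was called (limma, adjusted p = 0.067 for Id2, 0.0662 for Gata3 and 0.0723 for Cdx2). Cdx2 was not called with median centring (0.0558), no variance trend (0.0625) or a replicate block (0.0505) either. The Cdx2 call was also lost without any 1 of 7 libraries (adjusted p between 0.0567 and 0.0957), namely replicate 1 or 2 of DMSO 4 h, replicate 1 of DMSO 7 h, replicate 2 of DMSO 10 h and replicate 2 of p38-MAPKi at 4, 7 or 10 h. All 3 encode regulators of transcription, as do Tfap2c, Eomes and Tead4, which were not called. The keratins Krt7, Krt8 and Krt18, structural proteins of this epithelium, were not called either. The summed level of the 10 markers spanned 1850 to 2010 RPKM in DMSO and 2000 to 2030 RPKM in p38-MAPKi after 4 h, 1910 to 2540 RPKM and 2140 to 2270 RPKM after 7 h, and 2440 to 2690 RPKM and 2280 to 2570 RPKM after 10 h. These sums, which Krt8 and Krt18 make up for the most part, overlapped between the treatments at every time point. The part of the markers in the Atp1b1 result was not tested.

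Atp12a (ENSMUSG00000022229.3, chr14:56365068-56388550, plus strand) showed the largest log2 differences of the 6 members between 4 and 10 h in DMSO and after the inhibitor at 4 and 7 h, but not between 7 and 10 h in DMSO or after the inhibitor at 10 h. In DMSO it stood at 7.73 and 7.35 RPKM after 4 h, at 11.9 and 9.97 RPKM after 7 h, and at 12.2 and 12.4 RPKM after 10 h. Each time point lay above the one before it, with no overlap of the libraries, as for 29.0% of all genes between 4 and 7 h, 30.7% between 7 and 10 h and 50.3% between 4 and 10 h in either direction. Between 4 and 10 h Atp12a rose by 0.70 on the log2 scale (SE 0.132, limma, adjusted p = 0.0493). It was the 1 member of 6 called in that comparison, in which 0.471% of 10825 genes were called and 0.434% were called higher (47 of 51 calls, or 25 of 37 after centring each library on its median). The steps were not called on their own, with log2 changes of 0.53 (SE 0.199, adjusted p = 0.505) from 4 to 7 h and 0.18 (SE 0.133, adjusted p = 1.0) from 7 to 10 h. The 10 h against 4 h call was lost without DMSO 4 h replicate 1 (adjusted p = 0.0534), DMSO 10 h replicate 1 (0.293) or DMSO 10 h replicate 2 (0.347), and in a single fit of the 6 DMSO libraries.

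With p38-MAPKi, Atp12a stood at 6.11 and 4.28 RPKM after 4 h, at 3.43 and 5.64 RPKM after 7 h, and at 13.8 and 11.5 RPKM after 10 h. The treated libraries were below the DMSO libraries at 4 and 7 h and overlapped them at 10 h. At 7 h the means were 4.54 ± 1.56 RPKM in p38-MAPKi and 10.9 ± 1.34 RPKM in DMSO (SD, n = 2), and Atp12a fell by 1.31 on the log2 scale (SE 0.271, limma, adjusted p = 0.0487). It was the 1 member of 6 called at 7 h, where 2.13% of 10940 genes were called and 1.2% were called lower. At 4 h the change was -0.56 (SE 0.243, adjusted p = 0.386) and at 10 h 0.03 (SE 0.106, adjusted p = 0.892). The 7 h call was lost without DMSO 7 h replicate 1 (-1.18, adjusted p = 0.113) or DMSO 7 h replicate 2 (-1.43, adjusted p = 0.296). With the reads of all libraries thinned to the shallowest and fitted with voom, the change was -1.33 (adjusted p = 0.0553). Without p38-MAPKi 7 h replicate 1, the shallowest library, the call was kept at -0.95 (adjusted p = 0.0255), and with p38-MAPKi 7 h replicate 2 left out instead the change was -1.66 (adjusted p = 0.00026).

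The difference between the 7 and 10 h effects was the largest interaction among the members. For Atp12a the p38-MAPKi effect at 10 h was higher than that at 7 h by 1.34 on the log2 scale (SE 0.322), which did not pass the test over all genes (adjusted p = 0.0759). The effect at 7 h was 0.75 below that at 4 h on the log2 scale (log2 difference -0.75, SE 0.374, adjusted p = 0.661). Of the 6 members none was called in any of the 3 comparisons of effects, where 0.00884%, 0.00877% and 0.0% of all genes were called, and the lowest adjusted p over the members was 0.0759. At an unadjusted p under 0.05 there were 0, 3 and 1 members, in the order 7 h minus 4 h, 10 h minus 7 h and 10 h minus 4 h, beside 6.83%, 26.3% and 9.86% of all genes. Over the 3 time points Atp12a had a change of -0.61 (SE 0.197, adjusted p = 0.0997; exact permutation p = 0.0370, two-sided and unadjusted).

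**Figure D3:**
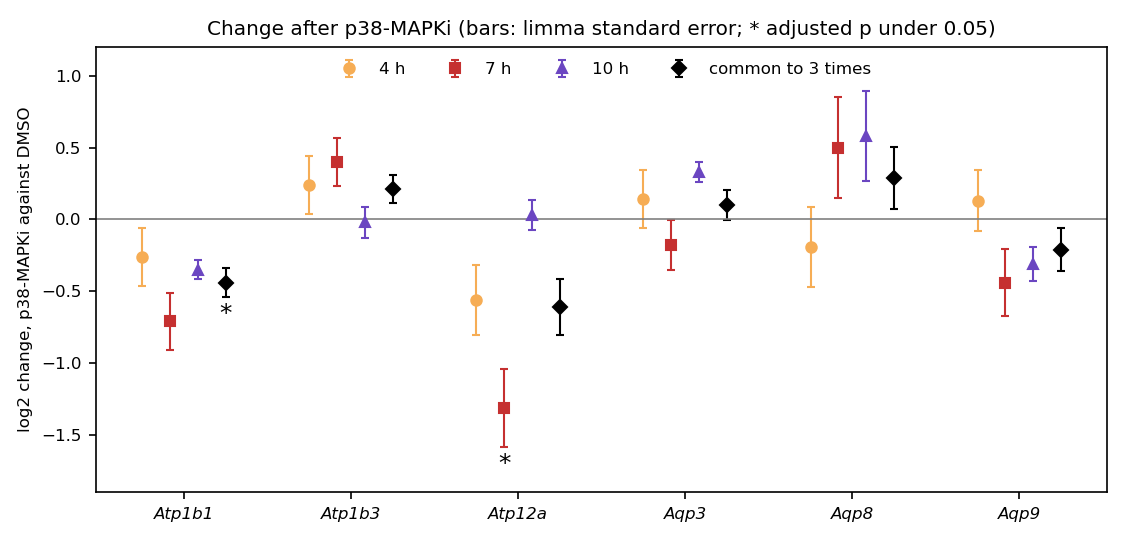
Log2 change after p38-MAPKi (vertical axis) of the 6 members at 4, 7 and 10 h and as 1 change common to the 3 time points, with limma standard errors as bars and an asterisk where the adjusted p was under 0.05. Asterisks stand at Atp12a at 7 h (-1.31) and at the common change of Atp1b1 (-0.44).

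Aqp3 (ENSMUSG00000028435.8, chr4:41092722-41098183, minus strand) was the most abundant aquaporin in all groups. In DMSO it stood at 87.6 and 120 RPKM after 4 h, at 102 and 117 RPKM after 7 h, and at 80.6 and 87.7 RPKM after 10 h. With p38-MAPKi it stood at 115 and 112 RPKM after 4 h, at 90.9 and 101 RPKM after 7 h, and at 105 and 107 RPKM after 10 h. The controls of 10 h were below those of 7 h, and the treated libraries of 10 h were above their controls. Neither difference passed the test over all genes. The log2 change was -0.37 from 7 to 10 h in DMSO (SE 0.124, adjusted p = 1.0) and 0.33 after p38-MAPKi at 10 h (SE 0.0667, adjusted p = 0.0801). These 2 comparisons share the DMSO 10 h libraries. At 4 h the change after p38-MAPKi was 0.14 (SE 0.201, adjusted p = 0.859), at 7 h -0.18 (SE 0.173, adjusted p = 0.500) and over the 3 time points 0.10 (SE 0.104, adjusted p = 0.572; exact permutation p = 0.426).

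Aqp9 (ENSMUSG00000032204.13, chr9:71110659-71168682, minus strand) was highest in the DMSO libraries of 10 h. In DMSO it stood at 11.9 and 17.9 RPKM after 4 h, at 14.5 and 16.7 RPKM after 7 h, and at 22.4 and 18.9 RPKM after 10 h. With p38-MAPKi it stood at 13.5 and 18.8 RPKM after 4 h, at 9.30 and 14.2 RPKM after 7 h, and at 18.0 and 15.3 RPKM after 10 h. The treated libraries overlapped the controls at 4 h and lay below them at 7 and 10 h. The log2 change after p38-MAPKi was 0.13 (SE 0.213, adjusted p = 0.884) at 4 h, -0.44 (SE 0.235, adjusted p = 0.252) at 7 h and -0.31 (SE 0.118, adjusted p = 0.218) at 10 h, and in DMSO from 4 to 10 h it was 0.50 (SE 0.181, adjusted p = 0.255). None of these was called, and over the 3 time points the change after p38-MAPKi was -0.21 (SE 0.150, adjusted p = 0.398; exact permutation p = 0.278).

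Aqp8 (ENSMUSG00000030762.11, chr7:123462291-123468004, plus strand) was low throughout, with replicates far apart in some groups. In DMSO it stood at 3.77 and 4.33 RPKM after 4 h, at 4.82 and 3.41 RPKM after 7 h, and at 5.28 and 3.10 RPKM after 10 h. With p38-MAPKi it stood at 3.61 and 3.45 RPKM after 4 h, at 3.99 and 8.20 RPKM after 7 h, and at 7.78 and 4.68 RPKM after 10 h. Among the treated libraries of 7 and 10 h, 1 of each pair was high and the other lay within the range of the controls. The log2 change was -0.19 (SE 0.279, adjusted p = 0.863) at 4 h, 0.50 (SE 0.353, adjusted p = 0.373) at 7 h, 0.58 (SE 0.312, adjusted p = 0.355) at 10 h and 0.29 over the 3 time points (SE 0.217, adjusted p = 0.404; exact permutation p = 0.333). Leaving out 1 of the treated 7 h libraries gave 1.01 (without replicate 1, adjusted p = 0.0338) or -0.02 (without replicate 2, adjusted p = 0.965).

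Counted as a list, the members did not move one way. Treated and control libraries did not overlap for 4 of 6 members at 4 h (1 above, 3 below), for 5 of 6 at 7 h (1 above, 4 below) and for 3 of 6 at 10 h (1 above, 2 below). Over all genes tested, 40.4% did not overlap at 4 h, 61.7% at 7 h and 52.2% at 10 h. The median log2 change of the 6 members was -0.03 at 4 h, -0.31 at 7 h and 0.00 at 10 h, beside 0.07, -0.14 and -0.02 for all genes tested. At an unadjusted p under 0.05 there were 1, 3 and 3 members at 4, 7 and 10 h, beside 9.42%, 28.4% and 19.8% of all genes. No member was called at 4 h (0.909% of all genes called) or at 10 h (0.803%; 37 of 88 calls were higher, or 62 of 116 after removal of a length trend). At 7 h the p38-MAPKi libraries as a whole sat low in these units, and centring each library on its median moved every 7 h change up by 0.20. On that scale the 7 h changes were -1.11 for Atp12a (adjusted p = 0.0705), -0.51 for Atp1b1 (0.157), 0.59 for Atp1b3 (0.0886), 0.01 for Aqp3 (0.972), 0.69 for Aqp8 (0.239) and -0.24 for Aqp9 (0.480), so the call of Atp12a was lost.

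In DMSO alone, members other than Atp12a were not called between any 2 time points. From 4 to 7 h none was called (0.492% of all genes were), with log2 changes between -0.03 and 0.53 and 1 member at an unadjusted p under 0.05 (4.79% of all genes). From 7 to 10 h none was called (0.0552% of all genes were), with log2 changes between -0.37 and 0.40 and 2 members at an unadjusted p under 0.05 (3.79%). From 4 to 10 h, 2 members were at an unadjusted p under 0.05 (15.2%). The time comparisons share libraries with each other and with the treatment comparisons.

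Few of the other listed subunit and channel genes were detected. The list of pump subunits and FXYD proteins, small regulators of the pump, held 13 genes and did not cover every subunit, and 2 of the 13 reached 1 RPKM in at least 2 libraries. Fxyd4 was between 2.63 and 6.94 RPKM and Fxyd6 between 0.606 and 1.98 RPKM. Neither was called in any comparison. Fxyd4 had a log2 change of 0.57 over the 3 time points (SE 0.151, adjusted p = 0.0581), and these genes are named with their values in view. The gastric pump genes Atp4a and Atp4b, and the beta subunits Atp1b2 and Atp1b4, did not reach 1 RPKM. Of the 9 other aquaporin genes, none did, and their summed level was at most 1.21 RPKM in any library.

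The list of sodium, chloride, bicarbonate and potassium carriers and channels held 23 genes, and 11 were detected. The 11 included Slc9a3r1 and Slc9a3r2, which encode scaffold proteins and carry no ion themselves. The potassium-chloride cotransporters Slc12a4 and Slc12a7 were among the 11. The epithelial sodium channel genes Scnn1a, Scnn1b and Scnn1g and the chloride channel gene Cftr were not. No gene of the list was called in any comparison, while at 7 h there were 5 of 11 at an unadjusted p under 0.05, against 28.4% of all genes. At 7 h the treated libraries of 9 of the 11 lay below the controls and those of 1 (the scaffold gene Slc9a3r2) above. Over all genes 38.7% lay below and 23.0% above. The median log2 change of the list at 7 h was -0.44, beside -0.14 over all genes, and it was 0.03 at 4 h and 0.02 at 10 h. Examples, chosen with their values in view, were Slc12a7 at -0.88 (SE 0.239, adjusted p = 0.0662) and the anion exchanger Slc4a2 at -0.84 (SE 0.225, adjusted p = 0.0652).

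Kinases and ubiquitin ligases known to act on such carriers were detected for 8 of 10 genes, while Sgk2 and Stk39 did not reach 1 RPKM in 2 libraries. Wnk2, a kinase that controls chloride cotransport, was the only one called. It stood at 14.1 and 18.1 RPKM in DMSO and at 4.54 and 7.22 RPKM in p38-MAPKi after 7 h. It fell by 1.48 on the log2 scale (SE 0.261, limma, adjusted p = 0.0456), where 2.13% of 10940 genes were called and 1.2% were called lower. The call was lost without DMSO 7 h replicate 2 (adjusted p = 0.305), with each library centred on its median (0.0694), with the length trend removed (0.107) and with no variance trend (0.158), and the log2 change stayed between -1.82 and -1.07 in every alternative run. At 4 h, with 11.4 and 14.1 RPKM in DMSO and 13.4 and 6.75 RPKM in p38-MAPKi, the libraries overlapped. At 10 h it stood at 18.0 and 22.4 RPKM in DMSO and at 17.4 and 16.9 RPKM in p38-MAPKi, a log2 change of -0.22 (SE 0.112, adjusted p = 0.322). The list's median at 7 h was -0.64 over 7 genes tested, beside -0.14 over all genes. The medians and counts of this list and of the carriers come from the values as deposited. Centring moved the 7 h median of all genes to 0.05, and removal of the length trend moved it to -0.03. With that trend removed 1 gene was called at 7 h, against 233 as reported. What these settings did to the lists was not tested. The treated libraries lay below the controls for 6 of 7, against 38.7% of all genes, and 4 of 7 had an unadjusted p under 0.05, against 28.4%. Depth moved with the treatment at 7 h, with 11242313 and 17435561 reads in p38-MAPKi and 21112831 and 23352633 reads in DMSO. After thinning all libraries to the same number of reads, the log2 change of Wnk2 was -1.48 and it was not called (voom and limma, adjusted p = 0.0509), as no gene was, with 3135 of 10940 genes at an unadjusted p under 0.05. On the reads before thinning the same test gave -1.44 and an adjusted p = 0.000578.

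**Figure D4:**
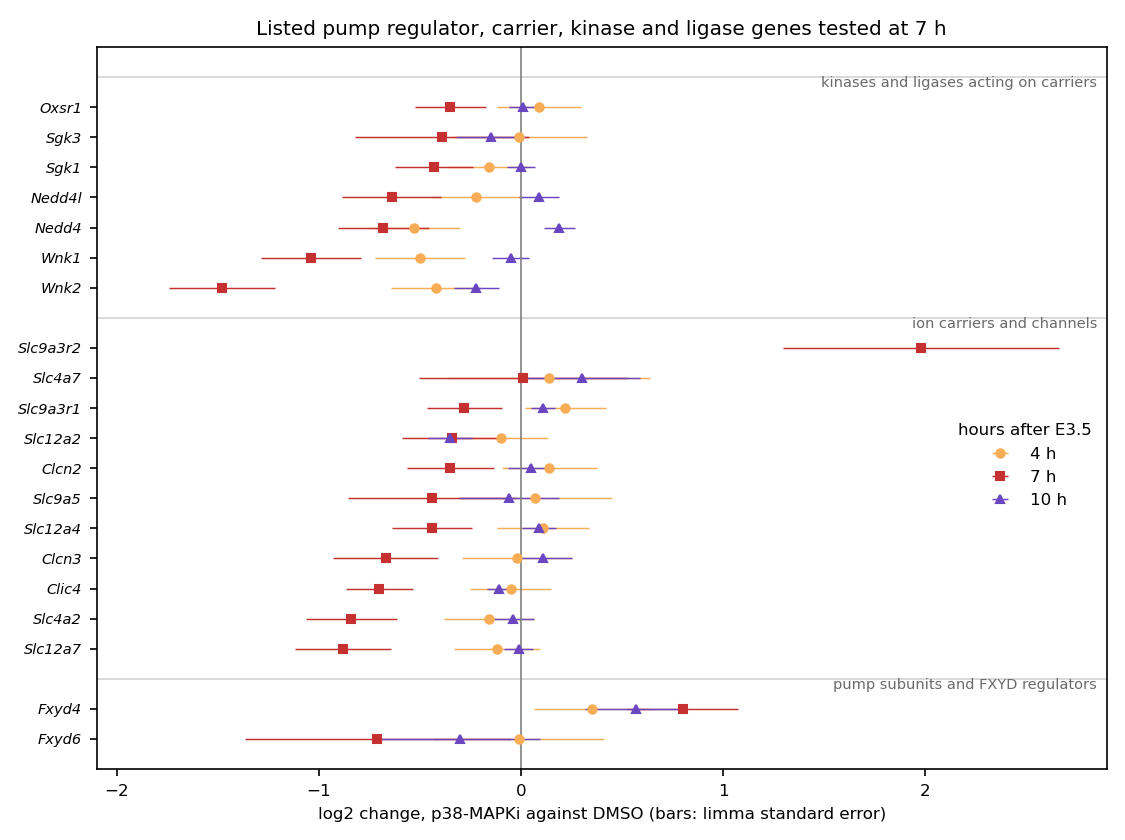
Log2 change after p38-MAPKi (horizontal axis, limma standard errors as bars) at 4, 7 and 10 h for the listed pump regulator, carrier, kinase and ligase genes tested at 7 h, sorted by the 7 h change within each list. Most 7 h squares lie left of 0 and most 4 and 10 h points near it, and Wnk2 at 7 h (-1.48) is the only change drawn that was called.

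The genes with the pattern most like each member over the 12 libraries were sought among 6949 genes with a mean of at least 5 RPKM. Pearson's r of log2 RPKM was used as a description. For Atp1b1 they were Mad2l1 (r = 0.937), Mypop (0.935) and Id2 (0.920), the last also a trophectoderm marker. For Atp1b3 they were Ypel5 (0.962), Fam98c (0.959) and Tfpt (0.959). For Atp12a they were Shtn1 (0.972), Cish (0.971) and Tm9sf2 (0.963). For Aqp9 they were Hnrnpa2b1 (0.918), Ppm1a (0.917) and Ubap1 (0.907). Aqp3 and Aqp8 had no neighbour as close: the nearest were Bhmt (0.871), Gm20460 (0.801) and Rmnd5b (0.795) for Aqp3, and Ankrd13c (0.798), Wdr61 (0.783) and Ctsb (0.778) for Aqp8. No member was among the nearest of another. All r share the same 12 libraries and their depths.

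**Figure D5:**
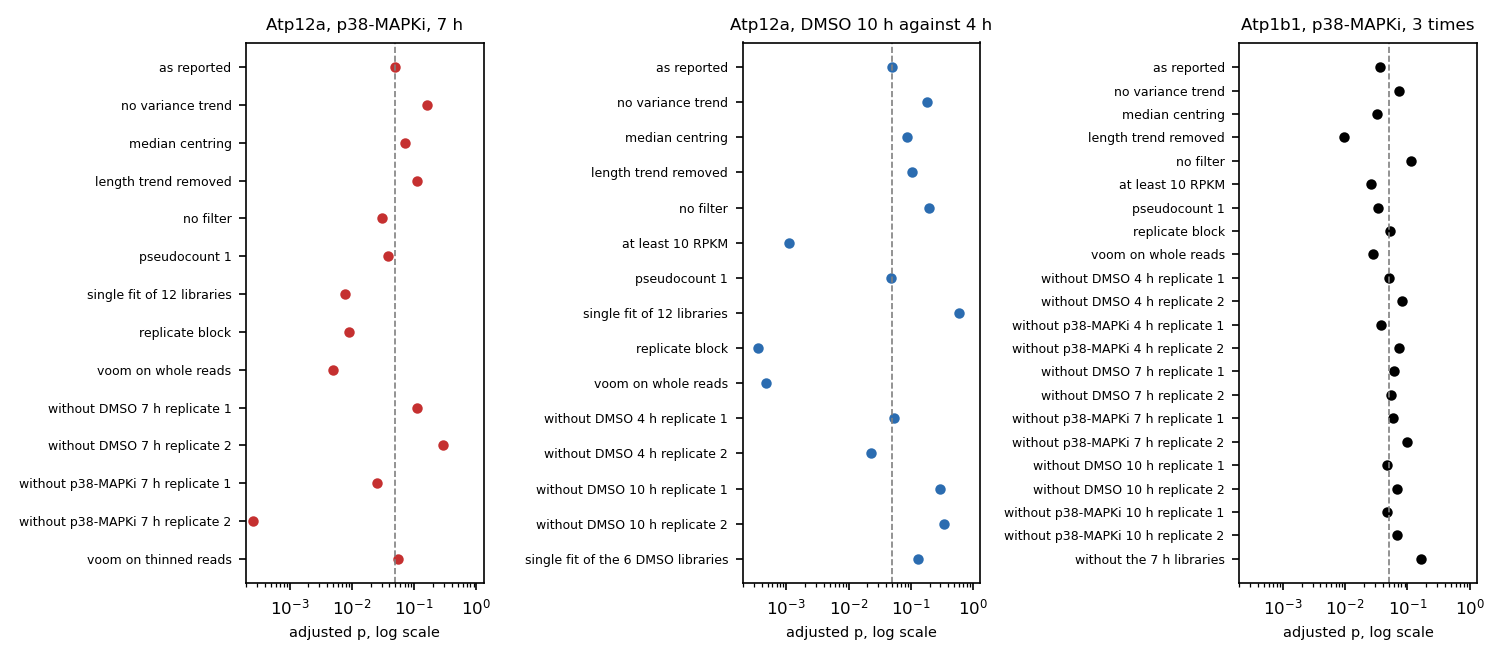
Adjusted p (horizontal axes, log scale) of the 3 calls among the members under each setting tried (rows), with a dashed line at 0.05: Atp12a after p38-MAPKi at 7 h, Atp12a in DMSO at 10 h against 4 h, and Atp1b1 after p38-MAPKi over the 3 time points. Points fall on both sides of the line in all 3 panels.

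The 3 calls were close to the threshold and depended on the setting. The call of Atp12a at 7 h held in 5 of 9 other settings that left out no single library, the call of Atp12a between 4 and 10 h in 4 of 10, and the common call of Atp1b1 in 5 of 9 (the fit without the 7 h libraries is among these), while none of the 3 changed sign in any setting. The authors call the replicate pools biological duplicates, but labels do not say how they were separated. The p-values rest on the spread between these libraries, which may be technical in part. For p38-MAPKi at 4 h and DMSO 7 h against 4 h, limma replaced each gene's own spread with that of genes of like level. The p-values of these comparisons therefore do not measure the spread of a member's own libraries. Atp1b1 overlaps Nme7 on the opposite strand, which reached at most 3.97 RPKM, and no other gene over a member reached 1 RPKM.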

How the data were processed

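The authors trimmed 50 bp single-end reads with Trim Galore 0.4.1, mapped them to GRCm38 with HISAT2 2.0.5 and, in SeqMonk, made the deposited log2 RPKM values of 34245 genes. The strand option and the treatment of multi-mapping reads are not given in the sources used here. Whole reads were recovered from the RPKM steps for all genes (100% of 11590 genes at 1 RPKM or more in at least 2 libraries, within 0.05 of a read), with a gene without reads written as 0.9 of a read.

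Each comparison was fitted with limma 3.58.1 (R 4.3.3; lmFit, then eBayes with a variance trend) on the deposited log2 values of its own libraries, for genes of at least 1 RPKM in 2 of them, with Benjamini-Hochberg adjustment over all genes tested and a threshold of 0.05. No pseudocount was added. Differences between effects came from fits of 8 libraries, and the change common to 3 time points from all 12, with time and treatment as terms. Library depth was 11242313 to 24457312 reads. Fits and read recovery were tested on simulated data.

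The members, gene lists and tests were chosen with earlier results of these data known. The text names all members, other listed genes called in a comparison, and the 3 genes of highest Pearson r to each member. Some genes of the lists are not reported here. Alternatives were no variance trend, centring on medians, removal of a length trend, other filters, a pseudocount of 1, single fits, a replicate block, voom on whole reads and each library left out. A single fit of the DMSO libraries, a common effect without 7 h, and voom on reads thinned to equal depth were added after seeing the data. SB220025 was at 20 µM in every treated group.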

Additional observations from a re-analysis of the deposited data

How the results depend on the processing

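The counts of called members moved with the setting. At 7 h, where 1 member was called, 0 were called with no variance trend, median centring, length trend removal or voom on thinned reads, 2 (Atp1b1 and Atp12a) with no filter, the single fit of 12 libraries, the replicate block or voom on whole reads, and 0 to 3 with 1 library left out. From 10 RPKM, Atp12a was not tested at 7 h and Atp1b1 was the 1 called. At 10 h, where 0 were called, 2 (Atp1b1 and Aqp3) were called from 10 RPKM or with voom and 3 (with Aqp8) with the replicate block. For DMSO 10 h against 4 h, with 1 called, 0 were called with no trend, centring, length trend removal, no filter, or the single fits of 12 or of the 6 DMSO libraries, 2 (Atp12a and Aqp9) from 10 RPKM, with the replicate block or with voom, and 0 to 2 with 1 library left out. For DMSO 10 h against 7 h, leaving out 1 library gave 0 to 1, with Aqp3 called without DMSO 7 h replicate 1. For the 10 h effect minus the 7 h effect, 1 (Atp12a) was called from 10 RPKM or with voom, and 0 to 2 with 1 library left out, and for the 10 h minus the 4 h effect 0 to 1, Atp12a without p38-MAPKi 4 h replicate 1. For the common change, with 1 called, 0 were called with no trend (Atp1b1 adjusted p = 0.0724), no filter (0.113), the replicate block (0.0528) or without the 7 h libraries (0.165), and 0 to 1 with 1 library left out. Atp1b1 lost that call without DMSO 4 h replicate 2, p38-MAPKi 4 h replicate 2, any 7 h library, DMSO 10 h replicate 2 or p38-MAPKi 10 h replicate 2. Beyond the number of samples or genes in a setting, the cause was not tested.

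Small uncalled changes turned sign. After centring, Aqp3 at 7 h was 0.01, and in DMSO from 4 to 7 h Aqp3 was -0.02 and Aqp9 -0.01. After removal of the length trend, the values were -0.05 for Aqp3 at 4 h, 0.01 for Atp1b3 at 10 h, -0.02 for Aqp3 over the 3 time points, and in DMSO from 4 to 7 h -0.01 for Aqp3 and -0.03 for Aqp9. With 1 library left out, the ranges were -0.08 to 0.37 for Aqp3 and -0.17 to 0.43 for Aqp9 at 4 h, -0.02 to 1.01 for Aqp8 at 7 h, -0.18 to 0.13 for Atp1b3 and -0.10 to 0.16 for Atp12a at 10 h, and -0.14 to 0.31 for Aqp3 and -0.20 to 0.39 for Aqp9 in DMSO from 4 to 7 h.

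The same-numbered libraries deviated together weakly, with correlations of -0.0124, 0.162 and 0.167 at 4, 7 and 10 h and 0.067, 0.0865 and 0.0704 in the DMSO comparisons (7 h with 4 h, 10 h with 7 h, 10 h with 4 h), so the numbers were not taken as pairs, and the replicate block gave 75 called genes at 4 h, 2023 at 7 h and 410 at 10 h. Over all genes, counts spanned 0 to 412 at 4 h (98 as reported), 0 to 2996 at 7 h (233), 0 to 524 at 10 h (88), 0 to 56 for DMSO 7 h against 4 h (53), 0 to 209 for 10 h against 7 h (6), 0 to 1183 for 10 h against 4 h (51) and 9 to 675 for the common change (310). For differences between effects they spanned 0 to 294 (7 h minus 4 h, 1 as reported), 0 to 2918 (10 h minus 7 h, 1) and 0 to 557 (10 h minus 4 h, 0). Centring shifted the DMSO changes by -0.11 from 4 to 7 h and -0.14 from 4 to 10 h. Of the 6 members, Aqp8 had the lowest count in a library, 71 reads, where counting alone gave an error of 11.87%. The part of depth in its spread was not tested.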
